A study of Mus musculus with 8 samples.

Results

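The genes described here are 38 genes of antioxidant defence: superoxide dismutases and catalase, glutathione peroxidases, peroxiredoxins with sulfiredoxin, the thioredoxin system, glutathione synthesis and recycling, NRF2 with its repressor KEAP1 and 2 inducible enzymes, metallothioneins, and glutathione transferases. They were chosen by gene symbol for these functions, but with earlier results of these data known. Shares set beside those of all genes are therefore a description only. All 38 were found among the 54091 rows of the expression table. RNA had been sequenced from white quadriceps, the pale part of the thigh muscle made mostly of fast glycolytic fibres, of male mice aged 11 to 14 weeks that ate a diet with 60% fat for 7 days before the muscle was taken in the morning. The 4 control libraries (replicates 1 to 4) came from Loxp/Loxp mice, and the 4 knockout libraries (replicates 5 to 8) from mice labelled CKM Cre, with Acot2 knocked out in muscle. Acot2 encodes a thioesterase of mitochondria, which releases coenzyme A from long-chain acyl-CoA. CKM is the muscle creatine kinase promoter, which is active in skeletal muscle and heart, so other cells of the tissue keep the gene. Only the knockouts carried Cre, so an effect of the recombinase and the loss of Acot2 cannot be told apart.

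Mitochondria and NADPH oxidases release superoxide, which superoxide dismutases turn into hydrogen peroxide. Catalase, glutathione peroxidases and peroxiredoxins then reduce the peroxide, and glutathione and thioredoxin, kept reduced with NADPH, supply the electrons. NRF2 is the transcription factor that raises many of these genes when KEAP1, which otherwise marks it for degradation, is modified by electrophiles or oxidants. It acts through the antioxidant response element, a short DNA motif near the genes it controls.

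The selenoproteins among the 38 genes read an in-frame TGA, elsewhere a stop codon, as selenocysteine, the residue at their catalytic site. The 5 sites found are shown because they set these enzymes apart from the cysteine-based peroxiredoxins. The lines give each coding sequence on the plus strand, 5′ to 3′ (GENCODE transcripts, GRCm38), with the codon in capitals and its position after the name.
Gpx1, codon 47 of 201, chr9:108339451-108339453: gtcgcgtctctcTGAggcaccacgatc
Gpx3, codon 73 of 226, chr11:54907256-54907258: gtagccagctacTGAggtctgacagac
Gpx4, codon 73 of 197, chr10:80054737-80054739: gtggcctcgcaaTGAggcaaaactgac
Txnrd1, codon 498 of 499, chr10:82896037-82896039: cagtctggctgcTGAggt
Txnrd2, codon 526 of 527, chr16:18477772-18477774: gtgactggttgcTGAggc
In the 3 peroxidases the codon lies within the coding sequence, and in both thioredoxin reductases it is the last but one. Gpx7 and Gpx8, the remaining peroxidases of the set, are not among the genes with such a codon.

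Promoters of the set were searched for the core of the antioxidant response element, TGACNNNGC, on both strands. RefSeq promoters (GRCm38.p6, 250 bases before to 50 after each start) were at hand for 32 of the 38 genes, and 8 of them held the core. Counted over promoters, it was in 8 of 40 (20%) against 12.4% of all 32851 promoters. The lines show the stretch around it in 4 genes on the plus strand, with the match in capitals.
Gclm, chr3:122245397-122245457: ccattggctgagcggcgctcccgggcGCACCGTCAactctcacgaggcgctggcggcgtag
Prdx1, chr4:116685440-116685500: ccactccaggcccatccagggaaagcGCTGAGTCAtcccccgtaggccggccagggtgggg
Txnrd1, chr10:82859088-82859148: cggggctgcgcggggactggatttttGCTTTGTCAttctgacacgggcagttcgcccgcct
Sod1, chr16:90220680-90220740: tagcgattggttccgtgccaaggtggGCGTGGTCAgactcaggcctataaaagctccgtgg
All 4 matches lie on the minus strand, with their far end 134, 133, 92 and 56 bases before the start of Gclm, Prdx1, Txnrd1 and Sod1. For Txnrd1 this is a start inside the gene, which is annotated from chr10:82833951. The other 4 genes with a match were Nfe2l2, Srxn1, Mgst1 and Mt2. The genes with the motif differed from one another: Sod1 and Prdx1 had higher and Txnrd1 lower values in the knockouts, and Gclm and Nfe2l2 overlapped between the groups. A match is a description of the sequence and does not show that a factor binds there.

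Each value is a normalized count, the number of reads divided by a size factor for its library. The libraries held 55283998 to 109101231 reads. As a check of the labels, Acot2 had counts of 2166 to 4165 in the controls and 256.4 to 354 in the knockouts, a log2 difference of -3.24 (limma, adjusted p = 4.72e-06), and it was the one gene called among the 15657 tested (0.00639%). Control replicates 3 and 4, the most deeply sequenced libraries, stood apart on the first principal component, at -55.2 and -56.1 against -0.561 to 38.6 for the other 6. Fast fibre markers summed to 8907000 to 10826000 in the controls and 10090000 to 11242000 in the knockouts, and slow fibre markers to at most 413540, as the label of white muscle states. No source says that the libraries came from separate animals, so the spread behind each p-value may be technical. In bulk tissue, fewer cells of a type and less RNA per cell cannot be told apart.

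Of the 38 genes, 37 were abundant enough to test, and 0 of them passed an adjusted p of 0.05 in either direction (limma, Benjamini-Hochberg over all 15657 genes; adjusted p = 0.0796 to 0.924), and voom on the recovered reads called 0 as well. An adjusted p under 0.1 was found in 15 of the 37, against 12% of all genes. At an unadjusted p under 0.05, 19 were higher and 3 lower in the knockouts. That is 59.5% of the 37, against 26.9% of all genes tested (13.6% higher and 13.3% lower). Estimates were above 0 in 27 and below 0 in 10, with a median log2 difference of 0.32, against 50.3% above 0 and a median of 0.00257 over all genes. The groups did not overlap in 10 genes, 8 higher and 2 lower (27.0%, against 13.1% of all genes, 6.06% higher and 7.06% lower). For groups without overlap the two-sided exact permutation test always gives p = 0.0286, the lowest value possible with 4 libraries a group. It therefore restates the separation of these 10 and adds no support. Without control replicate 1, 12 of the genes passed the adjusted threshold, and without control replicate 2, 16 did (11% and 13.1% of all genes). With sample quality weights, whose estimation stopped short of convergence, 11 passed (7.67% of all genes).

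Much of the difference rested on 2 control libraries. In 17 of the 37 genes control replicates 3 and 4 were the lowest of the 8 libraries, and in 2, Cat and Txnrd1, they were the highest. The share of all genes with either pattern is not given. These libraries also stood apart over all genes on the first principal component, which does not give the direction of other genes. The median deviation of the 37 genes from their own means was -0.22 and -0.34 in these libraries, and 0.02 to 0.17 in the other 6. Over all genes it was 0.0086 and 0.0093 in these libraries. Over all genes in the quartile of shortest transcripts, described below, it was -0.32 and -0.34. Without both, the median difference was 0.15, with 23 estimates above 0 (49.9% of all genes) and 10 genes at an unadjusted p under 0.05 (27.0%, against 7.98% of all genes). Of the 22 genes at an unadjusted p under 0.05 with all libraries, 21 had a smaller difference without this pair, the exception being Hmox1. Picking genes with the pair included favours a smaller difference without it, and the matching share over all genes is not given. The count of 21 is therefore a description only.

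**Figure D1:**
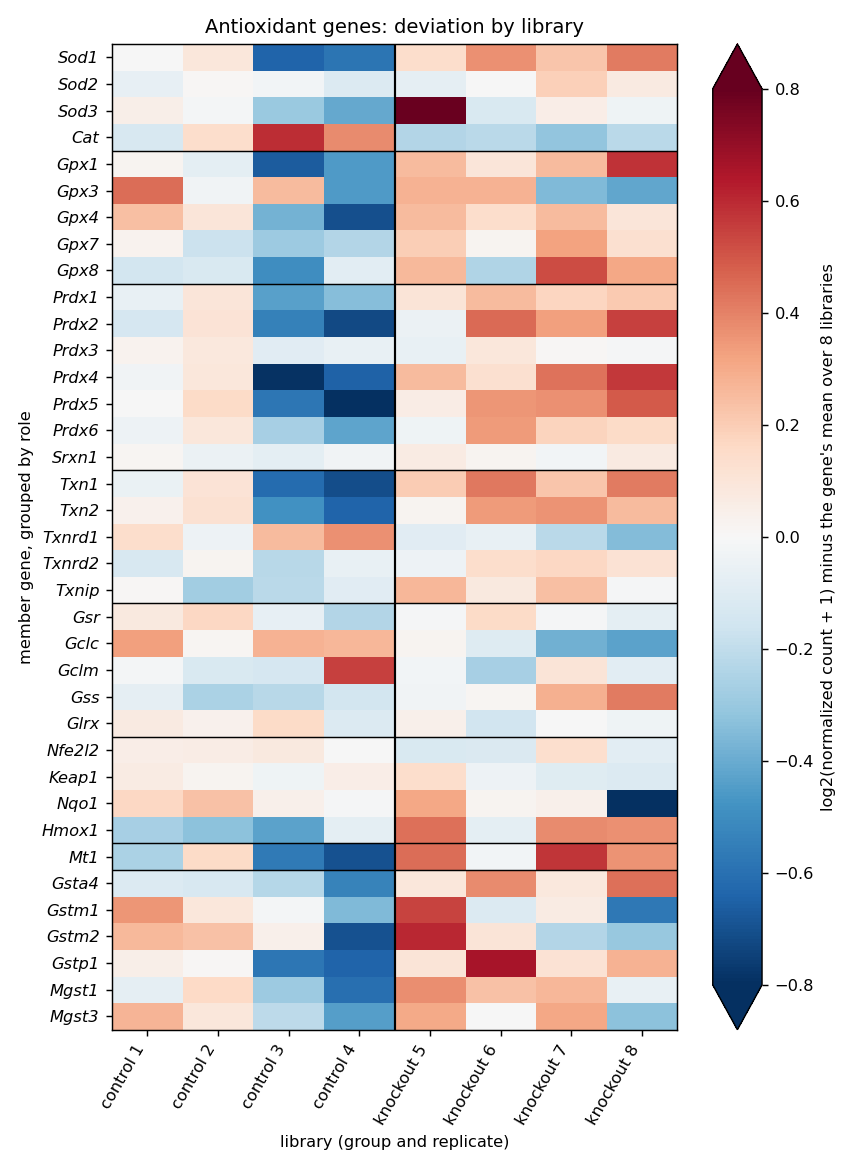
Heat map of the 37 tested genes (rows, grouped by role) in the 8 libraries (columns; the black line parts controls from knockouts). Colour is the log2(normalized count + 1) minus the gene's mean over the libraries: control replicates 3 and 4 lie below the mean in 29 and 32 genes, and the other 6 libraries in 9 to 17.

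The levels of the genes spanned a wide range. Compared per kilobase of principal transcript, the controls had most Gpx4 (normalized count per kilobase 23189 ± 6693, SD, n = 4), the peroxidase that acts on lipid hydroperoxides in membranes. Sod1, the copper-zinc dismutase of the cytosol, followed at 18551 ± 4860, then Gstp1 at 14283 ± 3590, the secreted plasma peroxidase Gpx3 at 13797 ± 3527 and Mgst3 at 12581 ± 2711. Each of these differed from its neighbour in the order by less than the larger of their 2 SDs. The mitochondrial peroxiredoxins Prdx5 and Prdx3 reached 11225 and 10548 per kilobase. Among the tested genes, those of glutathione synthesis were lowest per kilobase, with Gclm at 327, Gclc at 274 and Gss at 224. The levels of Gpx4 and Gstp1 are uncertain. Of the 50-base windows of the principal transcript, 68.9% for Gpx4 also occur in the pseudogene Gpx4-ps2 and 62.3% for Gstp1 in Gstp2.

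**Figure D2:**
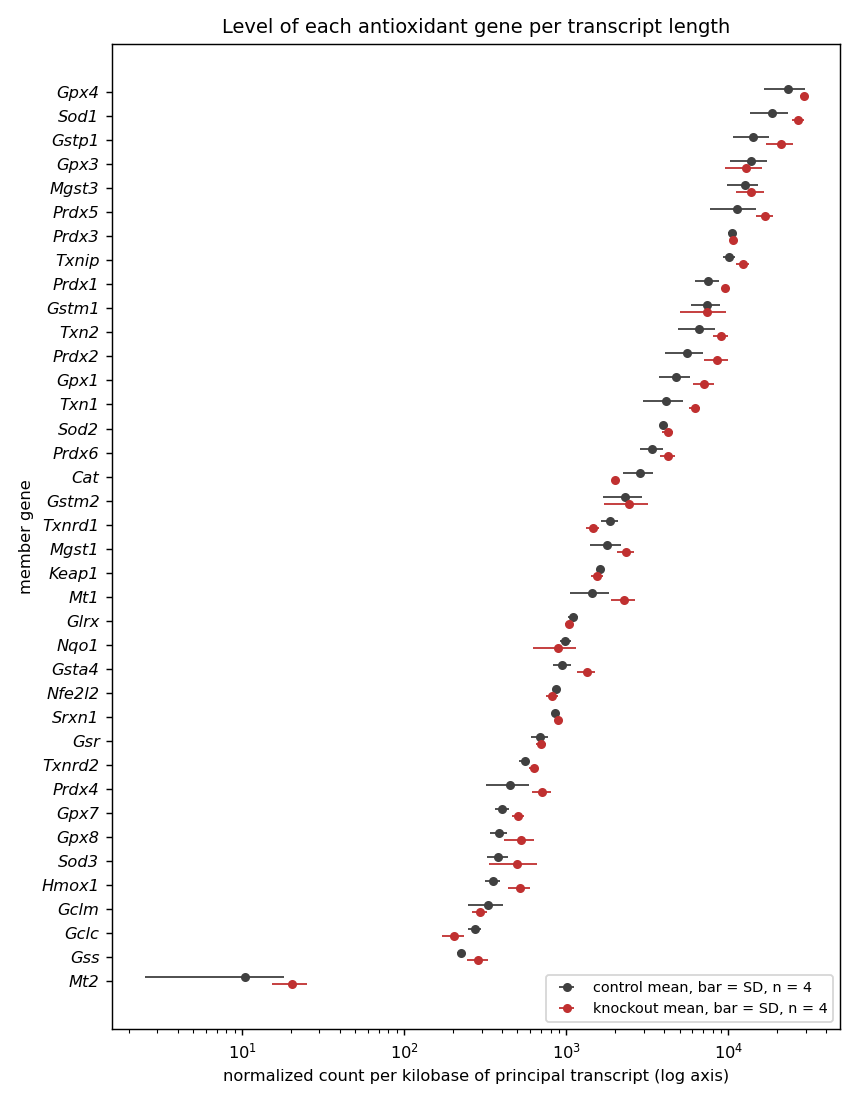
Level of each of the 38 genes per kilobase of its principal transcript (log axis), with the mean and SD of the 4 controls and the 4 knockouts. Levels run from 23189 for Gpx4 down to 10.4 for Mt2 in the controls, and the order is led by Gpx4, Sod1, Gstp1, Gpx3 and Mgst3.

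Among the enzymes that remove superoxide and hydrogen peroxide first, Sod1 and catalase stood at opposite ends. Sod1 had 14094, 15037, 9044 and 9389.6 counts in the 4 controls, in order of replicate, and 15536, 18156, 16422 and 18801 in the 4 knockouts. Every knockout lay above every control, and control replicates 3 and 4 lay well below the other 2. The log2 difference was 0.57 ± 0.16 (SE, limma, adjusted p = 0.0807) with all libraries and 0.24 without control replicates 3 and 4. Of the 50-base windows of the principal Sod1 transcript, 23.1% recur in annotated transcripts of other genes. Cat, which encodes the peroxisomal catalase, had 5637, 6791, 9296 and 8015 counts in the controls and 5254, 5304, 4966 and 5312 in the knockouts. Here every knockout lay below every control, the knockouts were within a narrow range, and control replicates 3 and 4 were highest. Its difference was -0.49 ± 0.14 (limma, adjusted p = 0.0796) and -0.25 without that pair.

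The other dismutases overlapped between the groups. Sod2, the manganese enzyme of the mitochondrial matrix, had counts of 22176 to 24093 in controls and 22757 to 27329 in knockouts, a difference of 0.09 ± 0.10 (limma, adjusted p = 0.574). Sod3, the extracellular dismutase, differed by 0.34 ± 0.19 (adjusted p = 0.249). Knockout replicate 5 held 2745 counts of it, and the other knockouts 1452 to 1643 against 1190 to 1632 in the controls.

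Glutathione peroxidases had higher estimates in 4 of 5 genes, with a median of 0.37. At an unadjusted p under 0.05 were 4 of the 5, against 26.9% of all genes tested. Without control replicates 3 and 4 the median was 0.24, with 1 gene at that level (7.98% of all genes). With the trend on principal transcript length and GC content removed, as described below, it was 0.03, with 1 gene at that level (22.6% of all genes). Gpx1, the main cytosolic and mitochondrial form, had 6239.7, 5839.6, 3873 and 4495 counts in the controls and 7324, 6583, 7333 and 9173 in the knockouts. The groups were separate, with control replicates 3 and 4 lowest and knockout replicate 8 highest. Its difference was 0.59 ± 0.16 (limma, adjusted p = 0.0796). It was 0.32 without control replicates 3 and 4, and 0.49 without knockout replicate 8. Gpx4 had 28921, 26174, 18811 and 15047 counts in the controls and 29187, 26977, 29236 and 26243 in the knockouts. Control replicates 1 and 2 lay within the knockout range or near it, and the difference of 0.37 ± 0.17 (adjusted p = 0.185) was 0.02 without the other 2 controls.

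Gpx7 and Gpx8 are peroxidases of the endoplasmic reticulum that take part in oxidative protein folding. Gpx7 had 591, 512, 472 and 492 counts in the controls and 662, 587, 724 and 631 in the knockouts, and Gpx8 417, 423, 326 and 434 and 553, 389.5, 662 and 571. In both genes the knockouts lay above the controls except replicate 6, which was below control replicate 1 for Gpx7 and below 3 controls for Gpx8. The differences were 0.33 ± 0.13 and 0.42 ± 0.18 (limma, adjusted p = 0.135 and 0.145). With the trend on principal transcript length and GC content removed they were 0.03 and 0.33. Gpx3 ranged from 15076 to 28086 in the controls and 15500 to 25014 in the knockouts, a full overlap with a difference of -0.11 ± 0.21.

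All 7 genes of the peroxiredoxin role had estimates above 0, with a median of 0.37. At an unadjusted p under 0.05 were 5 of the 7, against 26.9% of all genes tested. Without control replicates 3 and 4 the median was 0.17, with 1 gene at that level (7.98% of all genes). Prdx1, a cytosolic peroxiredoxin, had 18601, 20667, 14335 and 15276 counts in the controls and 20760.2, 23060.5, 21849.8 and 22391 in the knockouts. Prdx4, the form of the endoplasmic reticulum, had 538, 584, 317 and 351 and 655, 599.7, 742 and 812. In both the knockouts lay above every control, though knockout replicate 5 for Prdx1 and replicate 6 for Prdx4 exceeded control replicate 2 by little. The differences were 0.37 ± 0.12 and 0.69 ± 0.20 (limma, adjusted p = 0.0969 and 0.081), and 0.17 and 0.32 without control replicates 3 and 4.

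Prdx2, the other abundant cytosolic form, had 9922, 11739, 7472 and 6603 counts in the controls and 10522, 14883, 13619.6 and 15908 in the knockouts. Prdx5, found in mitochondria, peroxisomes and cytosol, had 16972, 18868, 11347 and 9477 and 17714, 21722, 21827 and 23859. Prdx6, which also acts on phospholipid hydroperoxides, had 8725, 9556, 7449 and 6700.2 and 8750.4, 11379.7, 10162 and 9987. In each of the 3 genes knockout replicate 5 lay below control replicate 2 and all other knockouts lay above every control. Their differences were 0.64, 0.64 and 0.32 (limma, adjusted p = 0.0796, 0.0814 and 0.14) and 0.33, 0.24 and 0.13 without control replicates 3 and 4. Exons of Rnaseh2a and Junb on the other strand cover 11.5% of Prdx2 exon bases, and those of Trmt112 19.1% of Prdx5, so their counts are uncertain to that extent, as the strand setting of the counting is not given in the sources used here.

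Prdx3, the mitochondrial matrix peroxiredoxin, did not follow the other family members in size. Its counts were 14714 to 16642 in the controls and 15056 to 16715 in the knockouts, a difference of 0.02 ± 0.10 (adjusted p = 0.924) whose sign turned under 8 of 23 alternatives. Srxn1, sulfiredoxin, which restores overoxidized peroxiredoxins, had 2311 to 2463 counts in the controls and 2399 to 2561 in the knockouts, a difference of 0.07 ± 0.10. Both were among the most even genes of the set.

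In the thioredoxin system, thioredoxins and the cytosolic reductase differed in opposite directions. Txn1, cytosolic thioredoxin, had 5018, 5638, 3408 and 3195 counts in the controls and 5994, 7002, 6084 and 6965 in the knockouts. Txn2, its mitochondrial counterpart, had 15891, 16844, 11049 and 9914 and 15706, 19593, 19829 and 18495. Txn1 did not overlap between the groups, and Txn2 overlapped through knockout replicate 5, which lay below control replicates 1 and 2. The differences were 0.63 ± 0.17 and 0.49 ± 0.16 (limma, adjusted p = 0.0796 and 0.0966), against 0.29 and 0.16 without control replicates 3 and 4.

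Txnrd1, the selenocysteine reductase that recycles cytosolic thioredoxin, had 6389, 5632, 6914 and 7457 counts in the controls and 5432, 5554, 4988 and 4551 in the knockouts. Every knockout was below every control, and the closest libraries were control replicate 2 and knockout replicate 6. The difference was -0.36 ± 0.12 (limma, adjusted p = 0.0891) and -0.23 without control replicates 3 and 4. Mitochondrial Txnrd2 differed by 0.19 ± 0.11 (adjusted p = 0.257). Txnip, which binds and inhibits thioredoxin and restrains glucose uptake, had 31382, 25635, 26835 and 29239.9 counts in the controls and 37442, 32822, 36750.1 and 30929 in the knockouts. Knockout replicate 8 lay just below control replicate 1, and all other knockouts were above the controls. The difference of 0.29 ± 0.11 (adjusted p = 0.13) was 0.28 without control replicates 3 and 4, nearly the same size. Exons of Gm15441 on the other strand cover 19.4% of the Txnip exon bases.

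**Figure D3:**
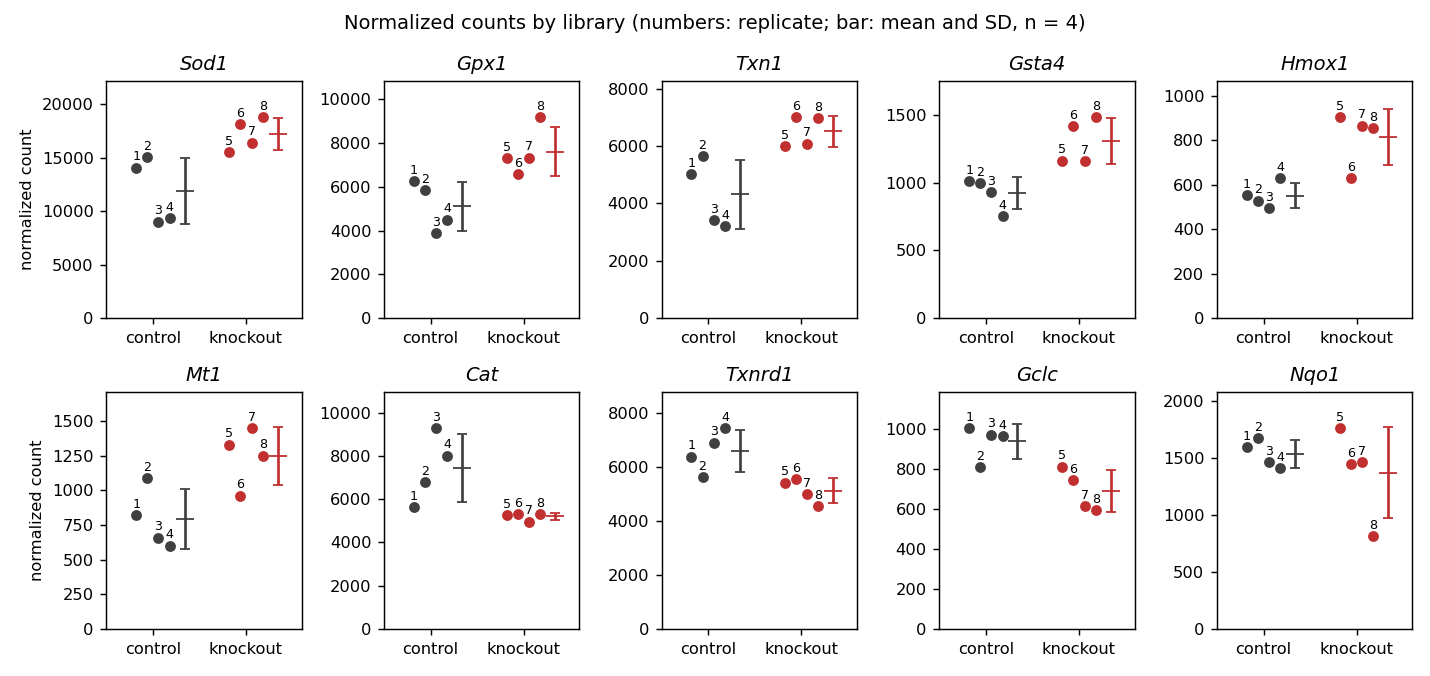
Normalized counts of 10 of the genes by library, with numbers for replicates and bars for the mean and SD (n = 4 per group); each axis starts at 0. Sod1, Gpx1, Txn1 and Gsta4 are higher in every knockout than in any control, Cat and Txnrd1 lower, while Hmox1, Mt1, Gclc and Nqo1 overlap.

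Glutathione synthesis did not share 1 direction. Gclc, the catalytic subunit of glutamate-cysteine ligase and the rate-limiting enzyme of the pathway, had 1006, 809, 972 and 964 counts in the controls and 812, 744, 613 and 596 in the knockouts. Knockout replicate 5 lay just above control replicate 2, and the other knockouts were below every control. Its difference was -0.45 ± 0.14 (limma, adjusted p = 0.0853; p = 0.0571 by the exact permutation test) and -0.40 without control replicates 3 and 4. Gclm, the modifier subunit, differed by -0.14 ± 0.15 (adjusted p = 0.584), with 2497 counts in control replicate 4 and 1421 to 1838 in the other 7 libraries. Gss, which adds glycine in the second and last step, had 472, 415, 424 and 448 counts in the controls and 487, 502, 604 and 660.5 in the knockouts. All knockouts were above the controls, with a difference of 0.35 ± 0.14 (adjusted p = 0.144) and 0.34 without the pair. Exons of other genes on the opposite strand cover 15.4% of Gss exon bases.

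Recycling was even. Gsr, glutathione reductase, had 1582 to 2086 counts in controls and 1762 to 2066 in knockouts, and differed by 0.03 ± 0.12. Glrx, the cytosolic glutaredoxin, had 1515, 1474, 1599 and 1335 counts in the controls and 1483, 1295, 1435 and 1406 in the knockouts. The groups overlapped and the difference was -0.07 ± 0.11 (limma, adjusted p = 0.682).

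NRF2 and KEAP1 transcripts were close between the groups. Nfe2l2, which encodes NRF2, had counts of 2075 to 2200 in the controls and 1910 to 2283 in the knockouts, a difference of -0.09 ± 0.10 (limma, adjusted p = 0.574). Keap1 had 5989.7, 5806, 5575 and 5920.3 counts in the controls and 6298, 5565, 5351 and 5301 in the knockouts. Its knockouts spanned the control range on both sides, with a difference of -0.05 ± 0.10 (adjusted p = 0.765). The NRF2 protein is controlled mostly by its stability, which these data do not measure.

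The 2 inducible enzymes differed from each other. Hmox1, heme oxygenase 1, which breaks heme down to biliverdin, iron and carbon monoxide, had 553, 529.5, 494 and 630.0 counts in the controls and 905, 629, 867 and 857 in the knockouts. Knockout replicate 6 equalled control replicate 4 within a count, and the other 3 knockouts were clearly above. Its difference was 0.55 ± 0.15 (limma, adjusted p = 0.0796; p = 0.0571 by the exact permutation test) and 0.57 without control replicates 3 and 4. Macrophages, which take up heme, also express Hmox1: of 13 macrophage markers 13 had higher estimates, and their summed counts were 9404 to 13799 in the controls and 13786 to 21999 in the knockouts, lowest of the knockouts in replicate 6. Their part in the Hmox1 difference was not tested.

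Nqo1, the quinone reductase often used as a readout of NRF2, had 1594, 1672, 1462 and 1411 counts in the controls in turn and 1764, 1446, 1462 and 813 in the knockouts. The groups overlapped, and knockout replicate 8 alone lay far below the rest. The difference of -0.21 ± 0.19 (limma, adjusted p = 0.486) turned to 0.02 without that library. Knockout replicate 8 also held heart transcripts, with Myl7 at 1124 counts against at most 4.1 in the other libraries, and their part in its low Nqo1 was not tested. Set side by side, 6 genes widely used as NRF2 targets, picked after their values were seen, differed by 0.55 (Hmox1), 0.07 (Srxn1), -0.14 (Gclm), -0.21 (Nqo1), -0.36 (Txnrd1) and -0.45 (Gclc). These 6 did not share a direction, and they do not stand for all targets. Of the 22 other NRF2 targets read from the lists below, 16 estimates were higher and 6 lower.

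Metallothioneins bind zinc and copper through cysteine thiols and respond to metals, glucocorticoids and oxidants. Mt1 had 819.9, 1088, 659.7 and 602 counts in the controls and 1331, 963, 1452 and 1252 in the knockouts. Knockout replicate 6 lay below control replicate 2, and the other 3 knockouts were above every control. The difference of 0.68 ± 0.18 (limma, adjusted p = 0.0796; p = 0.0571 by the exact permutation test) was 0.39 without control replicates 3 and 4. Mt2 was too low to test, at 10.6, 5.0, 0.8 and 4.8 counts in the controls and 7.8, 9.0, 13.5 and 11.0 in the knockouts, where 3 reads equal 2.04 to 3.87 counts. Exons of Gm45774 on the other strand cover 73.5% of Mt2, so its level is uncertain. The core of the metal response element (TGCACNC or TGCGCNC, both strands) was in 12 of 40 promoters of the set (30%), against 25.7% of all promoters. It occurred 3 times in the promoter of Mt1, 4 times in that of Mt2 and 3 times in that of Gclm. Of all promoters, 1.97% hold 3 or more. These counts include matches after the start: before it, Mt1 held 1 and Mt2 held 3, and a match of Gclm begins 27 bases after it.

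Glutathione transferases conjugate glutathione to electrophiles. Estimates were above 0 in 5 of 6 genes (50.3% of all genes), with a median of 0.27. Without control replicates 3 and 4 they were above 0 in 3 of 6 (49.9% of all genes), with a median of 0.02. Gsta4, the form most active on 4-hydroxynonenal, a product of lipid peroxidation, had 1013, 1e+03, 932 and 752 counts in the controls and 1162, 1418, 1157 and 1483 in the knockouts. All knockouts lay above all controls, and the difference was 0.50 ± 0.14 (limma, adjusted p = 0.0796) and 0.37 without control replicates 3 and 4. Gstp1 had 14448, 14095, 9375 and 8985 counts in the controls and 15048, 22155, 15196 and 17001 in the knockouts. It was separate too, with knockout replicate 6 highest, and differed by 0.58 ± 0.18 (adjusted p = 0.0817) or 0.26 without the pair.

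Mgst1, a membrane-bound transferase with peroxidase activity, had 2242, 2634, 1925 and 1551 counts in the controls and 3053, 2770.4, 2841 and 2265 in the knockouts. Knockout replicate 8 lay below control replicate 2, and the difference was 0.41 ± 0.16 (limma, adjusted p = 0.125). It was 0.16 without control replicates 3 and 4, which were the lowest libraries. The cytosolic mu-class genes Gstm1 and Gstm2 and the membrane-bound Mgst3 overlapped fully. They differed by -0.04 ± 0.21, 0.08 ± 0.23 and 0.14 ± 0.17, and the sign of each turned under some alternatives. Of the 50-base windows of the principal Gstm1 transcript, 23.2% recur in annotated transcripts of other genes.

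**Figure D4:**
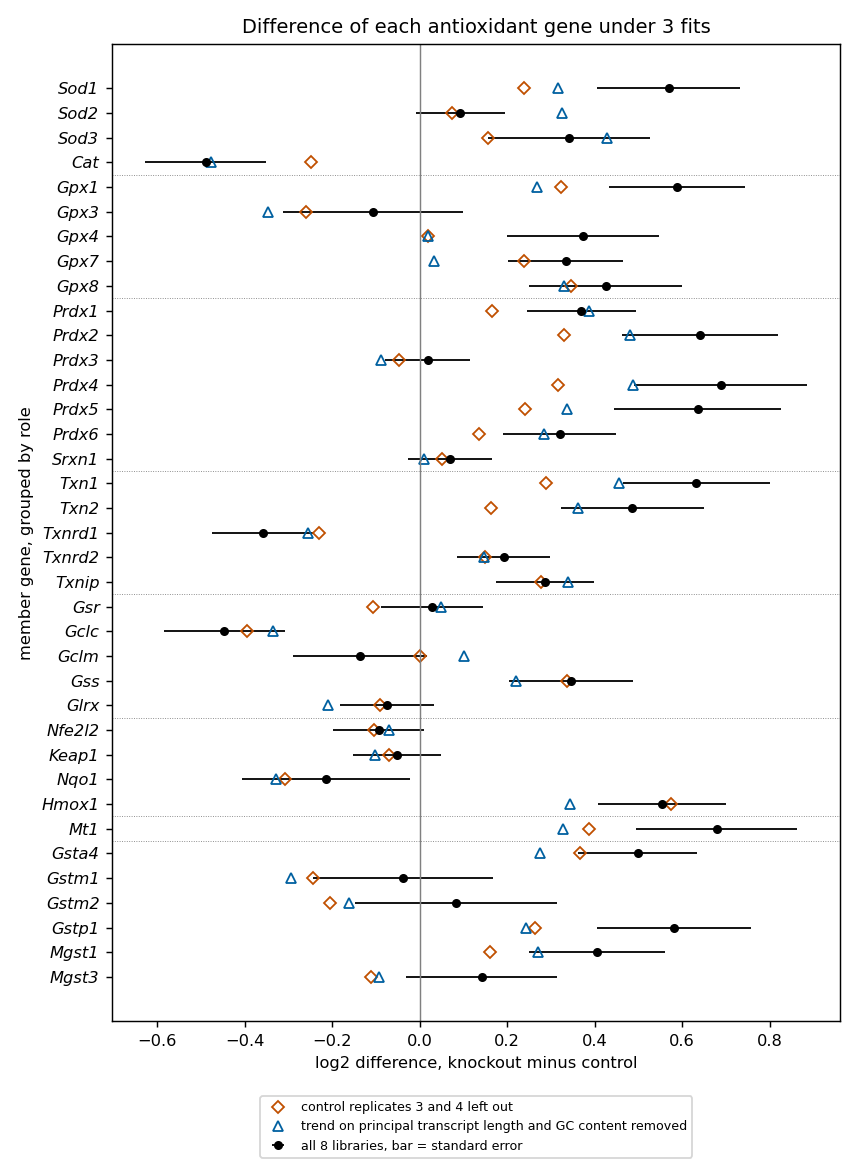
Log2 difference (knockout minus control) of the 37 tested genes, grouped by role, with all 8 libraries (dots, bar = SE), without control replicates 3 and 4 (diamonds), and after removing the trend on transcript length and GC content (triangles). Most estimates lie right of 0 and shrink without the 2 controls. In all 3 fits Cat, Txnrd1, Gclc, Gpx3, Nfe2l2, Keap1, Nqo1, Gstm1 and Glrx lie to the left.

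Many of the genes have short transcripts, and the libraries differed by transcript length. Among all genes in the quartile with the shortest principal transcripts (56 to 1688 bases) the median difference was 0.29, and 35.1% had an unadjusted p under 0.05. That quartile holds 21 of the 37 genes, with 17 estimates above 0, a median of 0.42 and 14 at an unadjusted p under 0.05. In the quartile of the longest transcripts the median of all genes was -0.22, and 2 of the 37 genes fall there. Genes of the shortest quartile deviated by -0.32 and -0.34 in control replicates 3 and 4 and by 0.05 to 0.19 in the other libraries.

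With the trend on principal transcript length and GC content removed from each library, the median difference of the 37 genes was 0.22, with 25 above 0 (52% of all genes) and 19 at an unadjusted p under 0.05 (51.4%, against 22.6% of all genes). With control replicates 3 and 4 left out as well it was 0.13, with 23 above 0 (49.6% of all genes) and 6 genes at that level (16.2%, against 6.93%). Sod1 then differed by 0.17, Gpx1 by 0.21, Gpx4 by -0.12 and Prdx5 by 0.14. Of the 22 genes at an unadjusted p under 0.05 with all libraries, 5 were there in 6 of 6 fits, with and without these controls and each trend: Txn1, Txnip and Gsta4 with higher values and Cat and Gclc with lower ones. In the fit that removes most they differed by 0.25, 0.30, 0.30, -0.24 and -0.36. Hmox1 differed by 0.52 in that fit. The 6 fits share libraries, and the share of all genes at that level in 6 of 6 is not given. The 5 genes are therefore a description only.

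**Figure D5:**
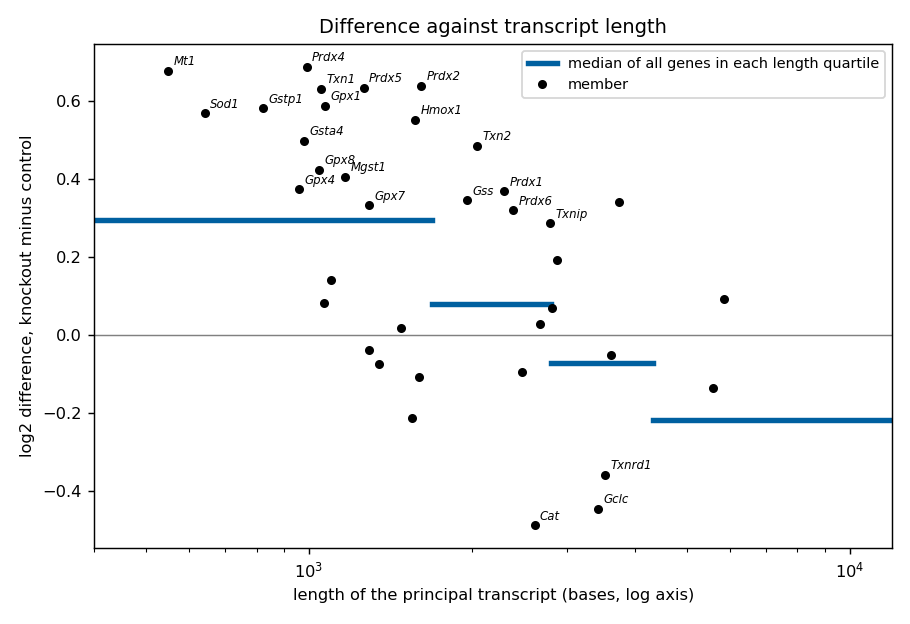
Log2 difference (knockout minus control) of the 37 tested genes (dots) against the length of the principal transcript (log axis), with the median of all genes in each length quartile as bars. The bars step down from 0.29 in the shortest to -0.22 in the longest quartile, and 25 of the 37 genes lie above the bar of their quartile.

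Genes of the same pathways outside the 38 were read from 9 lists with 135 genes, of which 129 were tested. None passed the adjusted threshold by limma (0 of 129). Leaving out control replicate 1 gave 22 of the 129, leaving out control replicate 2 gave 19, and sample quality weights gave 14. Of all genes tested, 11%, 13.1% and 7.67% passed in the same fits. At an unadjusted p under 0.05, 30 were higher and 17 lower (36.4%, against 26.9% of all genes). Among 22 other NRF2 targets 16 estimates were higher, with a median of 0.18, or 0.06 without control replicates 3 and 4. At an unadjusted p under 0.05, 6 of these targets were higher and 4 lower. The ferritin light chain Ftl1 differed by 0.75 and the biliverdin reductase Blvrb by 0.75, and neither overlapped between the groups (0.44 and 0.38 without control replicates 3 and 4). The export pump gene Abcc4, next in order of p and named after its value was seen, was separate in the other direction, at -0.56 (-0.29 without the pair).

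The 12 partners and repressors of NRF2 split evenly. Cul3, the scaffold of the ligase that KEAP1 recruits, differed by -0.42 and the kinase gene Gsk3b by -0.29, and both by -0.17 without control replicates 3 and 4. The thiol redox list of 23 genes had 17 higher estimates, led by the mitochondrial glutaredoxin Glrx5 at 0.69 and the copper chaperone of Sod1, Ccs, at 0.52 (0.33 and 0.30 without the pair). Of 19 genes for selenoproteins and selenocysteine incorporation 13 were higher. Selenom, of the endoplasmic reticulum, differed by 0.85 and Selenop, the secreted selenium carrier, by -0.41 (0.44 and -0.27 without the pair). In the list of enzymes that produce reactive oxygen, 6 of 12 were higher and 6 lower. Cyba, a membrane subunit of NADPH oxidases that macrophages express, differed by 1.05 (0.47 without the pair). The macrophage sums given with Hmox1 are higher in the knockouts too, and their part was not tested.

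For metal handling, 4 of 9 estimates were higher, with the metallothionein Mt3 at 0.83, at 54.7 to 229.5 counts (0.90 without control replicates 3 and 4). The copper chaperone Atox1 differed by 0.55, but by 0.14 without the pair and by -0.034 with the transcript length trend removed as well. Among the other glutathione transferases 11 of 16 were higher, with Gstm4 at 0.31 and Gstm5 at 0.30 (0.21 and 0.076 without the pair). Of the 6 genes of the MondoA list, the glucose-sensing pathway that controls Txnip, 5 were lower and 1, Arrdc4, was higher at 0.14. Arrdc3 and Mlxip differed by -0.36 and -0.46, and by -0.14 and -0.13 without the pair. Of 10 glucocorticoid responsive genes 7 were lower and 3 higher, with Klf9 at -0.34 and Zbtb16 at -0.28 (-0.24 and -0.07 without the pair). Tsc22d3, named after its value was seen, had a higher estimate of 0.25. None of the genes named from these lists passed the adjusted threshold (limma, adjusted p = 0.0796 to 0.577).

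Markers of other cell types that can hold these transcripts moved with some of the differences. Connective tissue markers of fibro-adipogenic progenitors had higher estimates in 11 of 11, with sums of 132280 to 174620 in the controls and 173310 to 208840 in the knockouts. White adipocyte markers had higher estimates in 9 of 10, with a median of 0.35 (-0.01 without control replicates 3 and 4) and Fabp4 at 0.75. Their sums overlapped, at 78032 to 117820 and 74230 to 147540, and Car3 made up most of them. Erythroid markers were higher in 4 of 7, with the globin Hba-a2 at 0.98 (0.59 without the pair), and their sums of 19683 to 37461 and 26843 to 35110 overlapped. Prdx2 and Cat are both abundant in red cells. Of the neutrophil markers, Ly6g was at 0 in every library. Cardiomyocyte markers had higher estimates in 9 of 9, with a median of 0.91. Their sums were 9709 to 29675 in the controls and 9030 to 77064 in the knockouts, highest in replicate 8, and Actc1 made up most of them. Myl7, Tnnt2 and Myh6 had 1124, 2252 and 2522 counts in knockout replicate 8, and lay within the control range in the other knockouts. Tnni3 and Sln exceeded every control in knockout replicate 6 too, and Actc1 in knockout replicate 7. Knockout replicate 8 was the highest library for Sod1, Gpx1, Prdx2, Prdx4, Prdx5, Srxn1, Gsta4 and Gss. It was the lowest for Txnrd1, Gclc, Keap1, Nqo1 and Gstm1. The part of these cells in the antioxidant differences was not tested.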

How the data were processed

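RNA from white quadriceps was sequenced in 8 libraries, 4 controls and 4 knockouts, grouped by the labels. Per the labels' protocols, a Norgen Biotek kit served for RNA extraction and a NEB Next Ultra II kit for the libraries. The tools named in the submitters' processing notes are STAR, HTSeq, DESeq2, cutadapt and FastQC, with GRCm38 as the build. The sources used here give no versions, settings or strand setting.

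The authors deposited log2 values. Undoing the log2 and subtracting 1 gave whole reads times 1 step per library: 100% of values from 1 to 1000 reads were whole to within 0.1. No raw counts were used. Depth was 55283998 to 109101231 reads per library. The 15657 genes whose normalized counts averaged 10 or more were tested on log2(normalized count + 1), which understates changes of low genes, with limma 3.58.1 in R 4.3.3 (trend and robust options, Benjamini-Hochberg at 0.05). Differences are knockout minus control. Symbols turned into dates by a spreadsheet (27) and older symbols of 9 selenoproteins were restored by Entrez identifier.

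The genes and lists were chosen with earlier results of these data known. All 38 genes are reported: counts in every library for those with an unadjusted p under 0.05 or no overlap and for the most abundant per kilobase of each role, and the 2 smallest p of each other list, of which 1 gene is not reported here. Trends on length and GC content were removed per library as a loess curve (span 0.5), on annotated exon length or, added after seeing the data, on the principal transcript, both from GENCODE annotation. Since the unit is log2, no count test was the main one, and voom was run on the recovered reads. Other alternatives were other pseudocounts, filters and scalings, sample weights, and each library left out. Python 3.11.15, numpy 2.4.6, pandas 2.3.3 and matplotlib 3.10.9 were used for the tables and figures.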

Additional observations from a re-analysis of the deposited data

Results flagged for a closer look

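Of 74 groups of 4 values examined (37 genes, 2 groups), 5 held a library set far apart from the other 3 by Dixon's 95% criterion, where chance gives about 1 in 20. Sod3 was highest in knockout replicate 5, at 2744.8 normalized counts. Cat was lowest in knockout replicate 7, at 4966.5 counts, although the 4 knockouts lay close together. Gpx8 was lowest in control replicate 3, at 326.5 counts. Gclm was highest in control replicate 4, at 2496.7 counts, and Nfe2l2 was highest in knockout replicate 7, at 2282.6 counts.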

How the results depend on the processing

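Over 23 alternatives the 37 genes kept the sign of their difference in 26 cases, and 11 turned at least once. The adjusted count of all genes was 1 as reported, 2 with no filter or equal totals, 4 with the exon length trend removed, 5 with the transcript length trend removed, 7 without the trend and robust options, 1201 with sample quality weights (estimation not converged) and 1 to 2048 leaving out 1 library (1722 without control replicate 1, 2048 without control replicate 2). Of the 37 genes, 11 passed with sample quality weights and 0 to 16 leaving out 1 library (12 without control replicate 1, 16 without control replicate 2), and 0 under the other alternatives. The median difference was 0.15 without control replicates 3 and 4, 0.14 with the exon length trend and 0.13 with the transcript length trend removed as well, and 0.23 to 0.36 leaving out 1 library. The cause was not tested.

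The sign turned as follows. Leaving out 1 library, Gpx3 ran from -0.28 to 0.023, Prdx3 from -0.010 to 0.050, Gsr from -0.045 to 0.088, Gclm from -0.20 to 0.023, Nqo1 from -0.35 to 0.018, Gstm1 from -0.22 to 0.15 and Gstm2 from -0.14 to 0.20. Without control replicates 3 and 4, Prdx3 was -0.048, Gsr -0.11, Gstm2 -0.20 and Mgst3 -0.11. With the exon length trend removed, Prdx3 was -0.081, Srxn1 -0.099, Gsr -0.061, Glrx 0.033, Gstm2 -0.12 and Mgst3 -0.089, and with those controls out as well Gpx4 was -0.086, Prdx3 -0.046, Gsr -0.13, Gclm 0.023, Gstm2 -0.25, Mgst3 -0.17 and Atox1 -0.010. With the transcript length trend removed, Prdx3 was -0.089, Gclm 0.10, Gstm2 -0.16 and Mgst3 -0.093, and with those controls out as well Gpx4 was -0.12, Prdx3 -0.078, Gsr -0.092, Gclm 0.046, Gstm2 -0.28, Mgst3 -0.18 and Atox1 -0.034. Prdx3 was -0.033 with quantile normalization.

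No paired analysis was possible because the groups share no replicate numbers. Standard errors of the 37 differences were 0.10 to 0.23 on the log2 scale. Counts of genes with near-identical copies or exons on the opposite strand are uncertain, and Mt2 lay near the floor of 3 reads.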

Other observations

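Nnt, which encodes the mitochondrial transhydrogenase that makes NADPH for Gsr and the mitochondrial thioredoxin system, was low in all 8 libraries. The 4 controls held 28.5, 20.1, 28.2 and 18.3 normalized counts and the 4 knockouts 19.4, 11.6, 9.4 and 15.9, a difference of -0.74 (limma, adjusted p = 0.282). The gene was picked after its values were seen. Of the lists of pathway genes, 5 were too low to test, among them Slc7a11, the cystine transporter that feeds glutathione synthesis, at 0.0 to 10.4 counts.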
